A study of Mus musculus with 6 samples.

Results

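The Hippo pathway and its TEAD transcription factors were described here through 10 genes, chosen by name from the table of all genes: the kinase Stk3 and its scaffold Sav1, the kinases Lats1 and Lats2, the coactivators Yap1 and Wwtr1, the DNA-binding factors Tead1, Tead3 and Tead4, and the cofactor Vgll4. All 10 were found by their Ensembl identifiers among 38293 genes, and all 10 were abundant enough to be kept among the 14746 genes that edgeR tested. RNA-seq compared cardiac tissue from 3 Zeb2 fl/fl and 3 Zeb2 cKO mice, 1 library per mouse, to learn what the loss of ZEB2 from cardiomyocytes does in the injured heart. ZEB2 is a zinc finger factor that mostly represses transcription. Zeb2 fl/fl mice, which the labels call WT, carried floxed Zeb2 alleles, and Zeb2 cKO mice carried in addition a Cre recombinase driven by the murine Myh6 promoter, which is active in cardiomyocytes. All 6 were adult mice of strain C57BL/6J (backcrossed), and all 6 had a permanent occlusion of the LAD, the coronary artery of the left ventricular front wall, 14 days before collection, so that no uninjured heart was among them. The tissue site was the border region of the infarct according to the labels and the remote zone according to the paper's methods.

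Hippo signalling is a kinase cascade that restrains organ size and cell division. MST kinases (MST2 is encoded by Stk3), held by the scaffold SAV1, activate the LATS kinases, which phosphorylate the coactivators YAP (Yap1) and TAZ (Wwtr1) and keep them out of the nucleus. When the cascade is off, YAP and TAZ enter the nucleus and bind TEAD factors, while VGLL4 competes with them for TEAD. In the heart the pathway is known for limiting the division of cardiomyocytes, and YAP and TAZ also act in activated fibroblasts. Much of this control is by phosphorylation, which RNA levels do not show.

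The promoters of the coactivators and of Vgll4 and Tead3 are shown first, because YAP and TAZ act through the DNA motif of the TEAD factors, and that of the target Ankrd1 is shown beside them. Promoter sequences came from RefSeq (build GRCm38.p6), where 7 of the 10 members had an entry. Each window ran from 250 bases before to 50 bases after a transcription start, and the 250 bases before the start are printed, 5′ to 3′ along the gene, all of these genes lying on the minus strand. Capitals mark the core of the TEAD motif, CATTCC or on the other strand GGAATG, and the E-box letters that ZEB factors bind, CACCTG or on the other strand CAGGTG. No copy of one motif overlapped a copy of the other in the sequences printed.
Yap1, chr9:8004597-8004846: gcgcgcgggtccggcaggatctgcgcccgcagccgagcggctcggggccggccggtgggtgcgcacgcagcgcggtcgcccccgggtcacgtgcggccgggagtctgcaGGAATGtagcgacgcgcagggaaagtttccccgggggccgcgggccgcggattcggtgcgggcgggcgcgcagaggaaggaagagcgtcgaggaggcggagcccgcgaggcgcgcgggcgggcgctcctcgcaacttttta
Wwtr1 (its first listed start), chr3:57575911-57576160: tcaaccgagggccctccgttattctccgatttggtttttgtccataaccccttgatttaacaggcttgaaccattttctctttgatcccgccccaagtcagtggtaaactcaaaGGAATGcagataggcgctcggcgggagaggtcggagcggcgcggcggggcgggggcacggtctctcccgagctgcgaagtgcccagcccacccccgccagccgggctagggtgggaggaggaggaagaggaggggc
Vgll4, chr6:114969204-114969453: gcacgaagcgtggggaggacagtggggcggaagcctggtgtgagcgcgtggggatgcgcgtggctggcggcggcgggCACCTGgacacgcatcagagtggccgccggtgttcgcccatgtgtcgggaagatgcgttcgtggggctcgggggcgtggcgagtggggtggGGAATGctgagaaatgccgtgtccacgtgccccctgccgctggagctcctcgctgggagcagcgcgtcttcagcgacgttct
Tead3 (its second listed start), chr17:28350601-28350850: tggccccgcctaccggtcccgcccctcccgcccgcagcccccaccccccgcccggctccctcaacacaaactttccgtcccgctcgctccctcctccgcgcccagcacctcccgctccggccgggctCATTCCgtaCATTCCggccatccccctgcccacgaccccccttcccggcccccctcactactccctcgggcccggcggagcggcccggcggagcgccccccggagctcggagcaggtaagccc
Ankrd1, chr19:36119845-36120094: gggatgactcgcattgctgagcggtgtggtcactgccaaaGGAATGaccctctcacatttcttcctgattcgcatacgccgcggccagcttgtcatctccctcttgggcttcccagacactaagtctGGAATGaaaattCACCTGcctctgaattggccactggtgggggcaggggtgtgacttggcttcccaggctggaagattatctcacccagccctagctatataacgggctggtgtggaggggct

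In the whole windows, 6 of the 7 members with an entry held the TEAD letters at least once, namely Sav1, Lats2, Yap1, Wwtr1, Tead3 and Vgll4, and Lats1 held none. Of all 32851 promoters that RefSeq gave, 14.66% held them, or 16.58% of 27025 genes when a gene counted once for any of its starts. Counted by start, 8 of the 11 windows of the members held them, although windows of neighbouring starts share bases. In Yap1 the motif began at position -141 and in Wwtr1 at -136, counted from the start with -1 as the first base before it, both on the strand opposite to the gene. Tead3 had 2 copies close together, at -123 and -114. The ZEB letters were found in 2 of the 7 members, Vgll4 at -173 and Lats2 at -134, beside 22.56% of all genes, or in 2 of the 11 windows beside 20.21% of all promoters. No binding was measured, so that these matches describe the letters only.

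**Figure D1:**
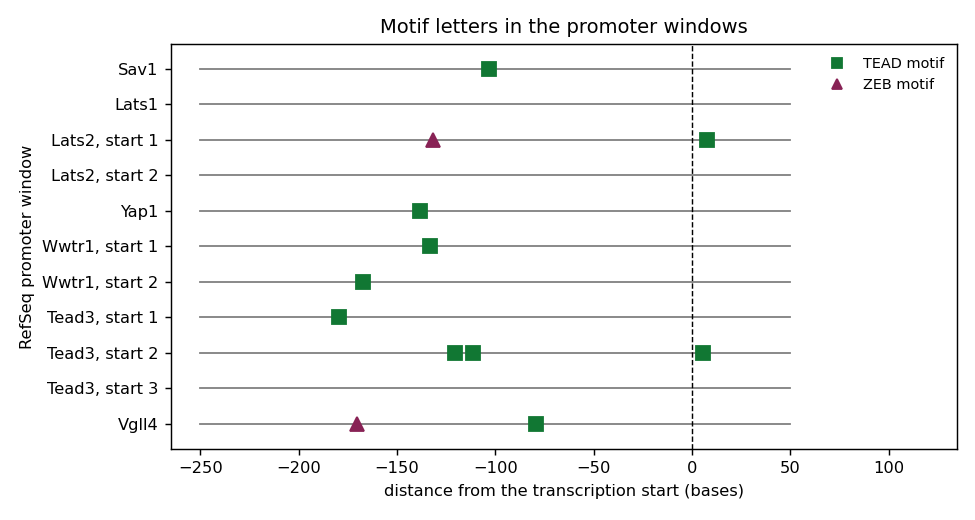
Positions of the TEAD motif (green squares) and the ZEB motif (purple triangles) in the 11 RefSeq promoter windows of 7 members, drawn as grey lines from 250 bases before to 50 bases after the transcription start (dashed line). In 8 windows there is at least 1 TEAD motif, and in 2 there is a ZEB motif.

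Library size was between 37.3 and 51.1 M counts, of which 14.3 to 19.0 M lay outside mitochondrially encoded genes. Levels are given as CPM, counts scaled to 1 M of the TMM-normalized library size. The deleted gene was seen only through the whole tissue, where fewer cells of a type and less RNA per cell cannot be told apart. The paper itself reports, from qPCR and immunofluorescence, that cardiomyocytes of infarcted Zeb2 cKO hearts had lost ZEB2. For Zeb2 (chromosome 2, 44983632 to 45117395), Zeb2 fl/fl replicates 1, 2 and 3 had 61.3, 116.05 and 71.9 CPM, and Zeb2 cKO replicates 1, 2 and 3 had 59.6, 72.6 and 66.5 CPM. The ranges overlapped, so the RNA level of Zeb2 in the tissue does not separate the genotypes (log2 fold change -0.33, standard error 0.25; edgeR quasi-likelihood test, adjusted p = 0.957). That difference came from 1 library, Zeb2 fl/fl replicate 2, and was -0.0058 when it was left out. The same library stood apart from the other 5 in all genes, at 74.53 on a first principal component where the others lay between -24.62 and -3.28. Its 10 fibroblast markers summed to 10551 CPM against 1846 to 2562 CPM in the other libraries, with each of the 10 at its highest level there. The 10 macrophage markers summed to 913 CPM against 228 to 320 CPM, again all 10 at their highest. Its 10 cardiomyocyte markers summed to 34643 CPM against 55234 to 67131 CPM, with 9 of 10 at their lowest. Sums for endothelial markers were 522 CPM in that library against 626 to 733 CPM, and for mural cell markers 708 CPM against 951 to 1071 CPM. Single markers of these lists were mixed, with 6 of 10 endothelial markers at their lowest there and 4 at their highest, and 6 of 10 mural cell markers at their lowest and 2 at their highest. Adipocyte markers ranged from 129 CPM, in that library, to 222 CPM, and lymphocyte markers from 1.22 CPM to 4.37 CPM, in that library. There 6 of 8 adipocyte markers were at their lowest and 5 of 8 lymphocyte markers at their highest. Of each of these lists, 2 of 8 markers were at 0 in at least 1 library. No marker of the other lists was at 0 in any library. Results for the members are therefore given with and without this library, and the part of its cell type markers in them was not tested.

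None of the 10 members passed an adjusted p of 0.05 when Zeb2 cKO hearts were compared with Zeb2 fl/fl hearts (edgeR's quasi-likelihood test, Benjamini-Hochberg adjustment over all genes tested). The background was the same, with 0% of all genes past that threshold, and with 1.9% of them at an unadjusted p under 0.05 there were 0 members. DESeq2, run as an alternative, called 0 members and 2 of all genes. In edgeR's test unadjusted p-values of the members ran from 0.148 (Yap1) to 0.930 (Tead1), and the adjusted p was 0.994 for Tead1 and 0.957 for the other members. The members differed in small steps, with log2 fold changes from -0.29 (Lats1) to 0.22 (Tead4). In 9 of 10 the fold change was below 0, where 51.4% of all genes were below 0. Their median was -0.13 on the log2 scale, beside -0.0069 over all genes tested. When Zeb2 fl/fl replicate 2 was left out, 9 of 10 were below 0, beside 49.1% of all genes, but these were not the same 9. Lats1 turned to 0.024 and Tead4 to -0.0075, and Stk3 (-0.020) and Sav1 (-0.0027) also lay near 0. The median was then -0.051, beside 0.0025 over all genes. That library held the highest level of 5 of the 10 members (Stk3, Sav1, Lats1, Wwtr1 and Vgll4), where 35.2% of all genes were highest in it, and the lowest level of 1, Tead4.

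**Figure D2:**
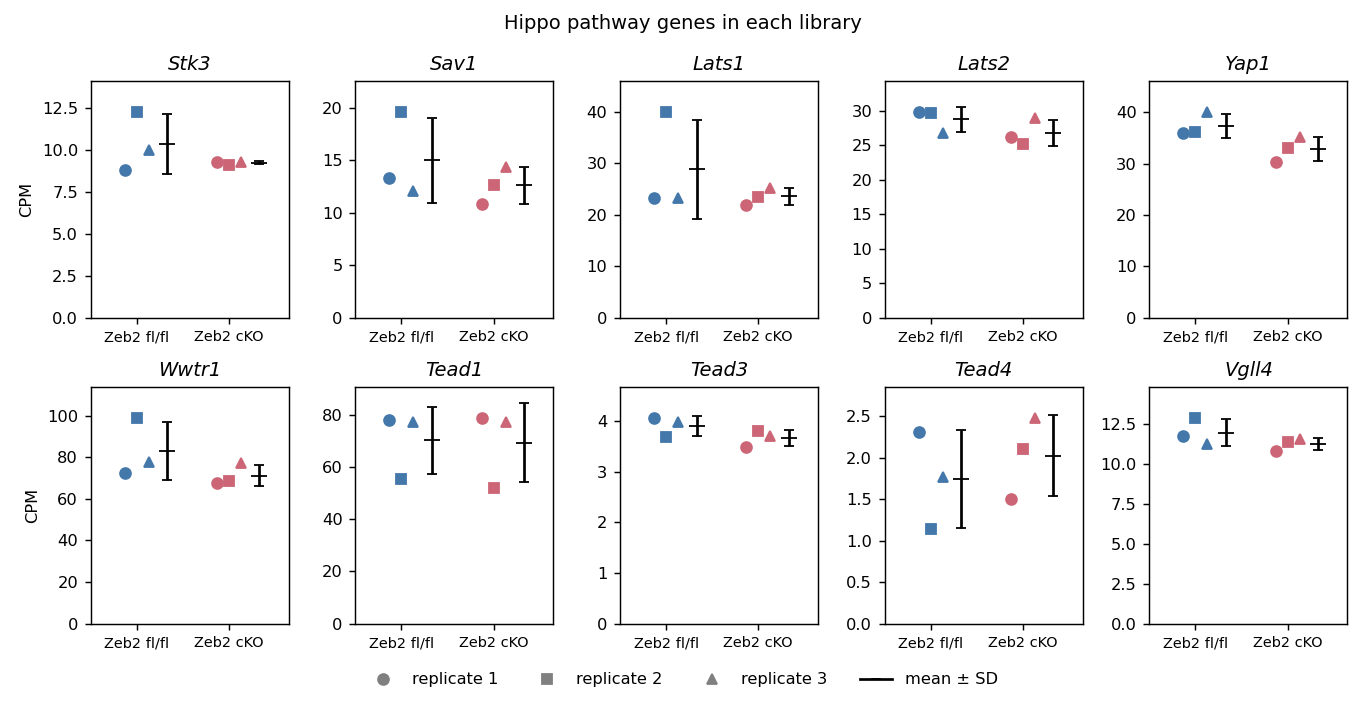
CPM of the 10 members in each library, with Zeb2 fl/fl in blue and Zeb2 cKO in red, marker shapes for replicates 1 to 3, and black bars for mean ± SD (n = 3); each vertical axis starts at 0. Lats1, Sav1, Stk3 and Wwtr1 show 1 high square in Zeb2 fl/fl, Tead1 shows 1 low square in each genotype, and in Yap1 the 3 Zeb2 cKO points lie under the 3 Zeb2 fl/fl points.

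Both genes of the upstream kinase module had overlapping groups and were highest in the same library, Zeb2 fl/fl replicate 2. Stk3 (ENSMUSG00000022329, minus strand of chromosome 15, 34875496 to 35178921) encodes the kinase MST2 at the top of the cascade. Zeb2 fl/fl replicates 1, 2 and 3 stood at 8.79, 12.3 and just under 10 CPM, and Zeb2 cKO replicates 1, 2 and 3 at 9.31, 9.13 and 9.29 CPM. The Zeb2 cKO libraries lay inside the range of the Zeb2 fl/fl libraries, and the SD as a percent of the mean was 1.09% in Zeb2 cKO and 17.1% in Zeb2 fl/fl hearts, beside a counting error of 5.5% at the lowest count of 331. Its log2 fold change was -0.16 (standard error 0.15, 95% interval -0.51 to 0.19) and became -0.020 when Zeb2 fl/fl replicate 2 was left out.

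Sav1 (ENSMUSG00000021067, minus strand of chromosome 12, 69965012 to 69987002) encodes the scaffold that holds MST kinases and LATS kinases together. In the order of the replicates, Zeb2 fl/fl hearts had 13.3, 19.6 and 12.1 CPM and Zeb2 cKO hearts 10.8, 12.7 and 14.4 CPM. The ranges overlapped, and the highest library was again Zeb2 fl/fl replicate 2, at 1.55 times the mean of the other 2 Zeb2 fl/fl libraries. The fold change, -0.25 on the log2 scale (standard error 0.21, interval -0.75 to 0.26), became -0.0027 without it. Exons of Sav1 share 1336 bases with Atl1 on the opposite strand, 25.38% of its exon bases, and the strand setting of the counting is not given in the sources used here. Atl1 had 94 to 138 counts per library, where Sav1 had 464 to 862.

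At the next step of the cascade, the 2 LATS kinases had overlapping groups, and over the 6 libraries Lats1 varied by 26.2% and Lats2 by 7.17% (SD as a percent of the mean). Lats1 (ENSMUSG00000040021, plus strand of chromosome 10, 7681214 to 7716460) measured 23.2, 40.04 and 23.2 CPM in Zeb2 fl/fl against 22.0, 23.6 and 25.2 CPM in Zeb2 cKO hearts. A single library set its spread: 5 libraries lay between 22.0 and 25.2 CPM, and Zeb2 fl/fl replicate 2 was at 1.72 times the mean of the other Zeb2 fl/fl libraries. Its log2 fold change was -0.29 (standard error 0.23, interval -0.84 to 0.25), and 0.024 (interval -0.21 to 0.26) when that library was left out.

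Lats2 (ENSMUSG00000021959, minus strand of chromosome 14, 57689662 to 57758388) encodes the sister kinase and is itself a known YAP target. Levels of 29.9, 29.8 and 26.7 CPM in Zeb2 fl/fl and 26.3, 25.1 and 28.9 CPM in Zeb2 cKO hearts overlapped. Here the library with the high fibroblast markers was not high, at 1.05 times the mean of the other 2. Its log2 fold change was -0.10 (standard error 0.11, interval -0.37 to 0.16), and -0.077 without that library. In the Gencode M21 annotation 42.39% of its exon bases also belong to Gm49361 on the same strand. That gene is no row of the count table, which was made on an older annotation, and how such reads were assigned is not given in the sources used here.

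Yap1 was the only member whose libraries did not overlap between the genotypes. Yap1 (ENSMUSG00000053110, minus strand of chromosome 9, 7931999 to 8004596), the coactivator whose promoter is printed first above, measured 35.9, 36.2 and 40.05 CPM in the Zeb2 fl/fl group, a mean of 37.4 ± 2.32 (SD, n = 3). The Zeb2 cKO group measured 30.4, 33.1 and 35.1 CPM, a mean of 32.9 ± 2.40 (SD, n = 3). Each Zeb2 cKO library was thus lower than each Zeb2 fl/fl library, by little: the highest of the first group stood at 35.1 and the lowest of the second at 35.9 CPM. This gap was smaller than the counting error of 2.72% at the lowest count of 1352, in Zeb2 fl/fl replicate 1. A lack of overlap with Zeb2 cKO as the lower group was found for 2.97% of all genes tested, so that 1 in 10 members is to be read against that share. The exact permutation test gave a two-sided p of 0.1, the smallest that 3 against 3 libraries allow. On the log2 scale the fold change was -0.19 (standard error 0.11, interval -0.46 to 0.085), with an unadjusted p of 0.148 and an adjusted p of 0.957 from edgeR's quasi-likelihood test. When the library with the high fibroblast markers was left out it was -0.21 (interval -0.45 to 0.042), and over all settings tried it lay between -0.24 and -0.13. In that library Yap1 was at 0.953 times the mean of the other Zeb2 fl/fl libraries. Of its longest transcript, 4.43% is shared with other genes at 95% identity or more.

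Wwtr1 (ENSMUSG00000027803, minus strand of chromosome 3, 57455649 to 57575910), which encodes the partner coactivator TAZ, had overlapping groups and its highest level in the library that was also highest for Lats1. Zeb2 fl/fl libraries were at 72.5, 98.8 and 77.8 CPM and Zeb2 cKO libraries at 67.8, 68.7 and 77.1 CPM. The ranges overlapped through Zeb2 cKO replicate 3, and the highest level stood in Zeb2 fl/fl replicate 2 at 1.31 times the mean of the other 2. Its log2 fold change, -0.22 (standard error 0.16, interval -0.59 to 0.15), became -0.075 (interval -0.31 to 0.17) without that library.

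The 3 TEAD factors had overlapping groups, with mean differences below 0 for Tead1 and Tead3 and above 0 for Tead4, and below 0 for all 3 when Zeb2 fl/fl replicate 2 was left out. Tead1 (ENSMUSG00000055320, plus strand of chromosome 7, 112679318 to 112906807) encodes the most abundant of the 3 TEAD factors among the members, per length of the gene. Its levels were 77.9, 55.3 and 77.2 CPM in Zeb2 fl/fl against 78.7, 51.8 and 77.1 CPM in Zeb2 cKO hearts. They fell into a pair of steps that cross the genotypes, with 4 libraries between 77.1 and 78.7 CPM and replicate 2 of each genotype well below. The low library of the Zeb2 cKO group did not share the marker levels of the low Zeb2 fl/fl library, with 1974 CPM for fibroblast and 58528 CPM for cardiomyocyte markers. The mice of equal replicate number are different animals, and the cause of these low Tead1 levels was not tested. At -0.020 on the log2 scale (standard error 0.22, interval -0.53 to 0.49), Tead1 had the smallest mean difference among the members, and it was -0.16 when Zeb2 fl/fl replicate 2 was left out.

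Tead3 and Tead4 were low. Tead3 (ENSMUSG00000002249, minus strand of chromosome 17, 28331671 to 28350817) ranged from 3.69 to 4.06 CPM in Zeb2 fl/fl and from 3.50 to 3.80 CPM in Zeb2 cKO libraries, at a log2 fold change of -0.093 (interval -0.41 to 0.23) that was -0.13 without Zeb2 fl/fl replicate 2. Its ranges overlapped, and it varied by 5.47% over the 6 libraries, less than the 8.08% that counting error alone gives at its lowest count of 153. Tead4 (ENSMUSG00000030353, minus strand of chromosome 6, 128224288 to 128300823) measured 2.31, 1.14 and 1.77 CPM in Zeb2 fl/fl against 1.499, 2.10 and 2.48 CPM in Zeb2 cKO hearts. It was the only member with a higher mean in Zeb2 cKO hearts, and its ranges overlapped. Its log2 fold change, 0.22 (standard error 0.31, interval -0.53 to 0.97), was -0.0075 without Zeb2 fl/fl replicate 2, where it was at 0.558 times the mean of the other 2. From 50 to 133 counts per library stood behind these values, the fewest among the members.

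Vgll4 (ENSMUSG00000030315, minus strand of chromosome 6, 114860628 to 114969994), the cofactor that competes with YAP for TEAD, varied little. Its levels were 11.8, 12.9 and 11.3 CPM in Zeb2 fl/fl against 10.9, 11.4 and 11.6 CPM in Zeb2 cKO hearts, and the ranges overlapped. The log2 fold change was -0.086 (standard error 0.11, interval -0.35 to 0.18), and -0.027 without Zeb2 fl/fl replicate 2.

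**Figure D3:**
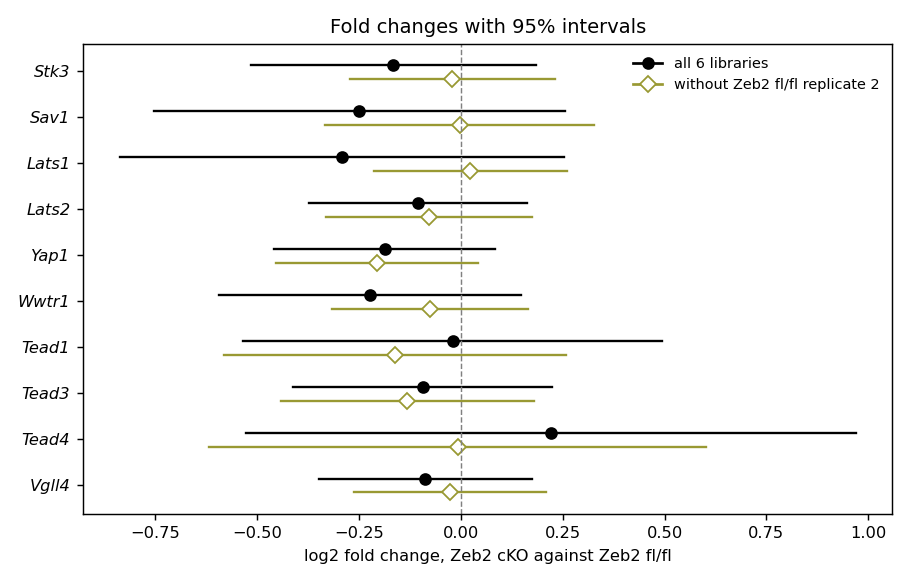
Log2 fold change of each member in Zeb2 cKO against Zeb2 fl/fl hearts with its 95% interval, from all 6 libraries (black circles) and without Zeb2 fl/fl replicate 2 (open diamonds). Every interval crosses 0; the values of Stk3, Sav1, Lats1 and Wwtr1 move toward 0 when that library is left out, and that of Yap1 moves from -0.19 to -0.21.

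**Figure D4:**
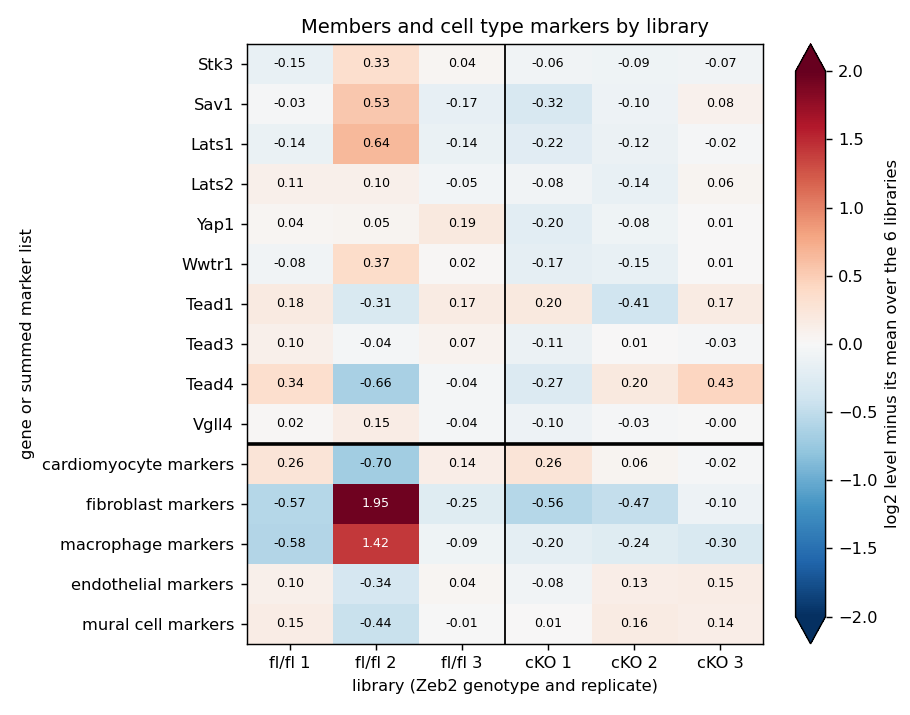
Log2 level of each member and of each summed marker list (10 markers each) minus its mean over the 6 libraries, with the value printed in each cell and colours ending at 2 on either side. In Zeb2 fl/fl replicate 2, fibroblast and macrophage markers reach 1.95 and 1.42, cardiomyocyte markers -0.70, Lats1 0.64, Sav1 0.53 and Tead4 -0.66.

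Levels were compared between genes per length, as CPM per kilobase of all annotated exons (Gencode M21). Wwtr1 led at 16.1 ± 2.39 (SD over the 6 libraries), and its lowest library, at 14.2, was above the highest of any other member. Tead1 came next at 5.13 ± 0.923, followed by Lats2 at 3.99 ± 0.286, Yap1 at 3.79 ± 0.351 and Lats1 at 3.59 ± 0.939. The order of these 4 was not the same in every library, although Tead1 was above Yap1 in each. In Zeb2 fl/fl replicate 2, Lats1 at 5.49 and Lats2 at 4.27 were above Tead1 at 4.08. In Zeb2 fl/fl replicate 3, Yap1 at 4.33 was above Lats2 at 3.84. Sav1 at 2.63 ± 0.587 had a range that overlapped with those of Lats1 and of Vgll4 at 2.16 ± 0.129. Within each library, however, Sav1 was below Lats1 and above Vgll4. Stk3 at 1.60 ± 0.209 reached 2.009 in 1 library, just under the lowest library of Vgll4 at 2.011. The lowest levels were those of Tead3 at 0.565 ± 0.0309 and Tead4 at 0.523 ± 0.141, which overlapped. With the longest transcript as the length, an alternative chosen after the data were seen, Wwtr1 stayed first at 16.4, Tead3 and Tead4 stayed last at 1.10 and 0.612, and Yap1 moved up past Lats2 to 6.65, next to Tead1 at 6.99. Vgll4 and Sav1 moved up past Lats1, with 5.29 and 4.11 against 3.63, and Tead3 and Tead4 no longer overlapped. The places between Wwtr1 and the low TEAD genes thus depend on the length used.

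Ratios between related members within a library, per length, do not depend on its depth. Yap1 to Wwtr1 was 0.256, 0.189 and 0.266 in Zeb2 fl/fl and 0.231, 0.248 and 0.235 in Zeb2 cKO libraries. These ranges overlapped, and the group means were 0.237 and 0.238, so that this ratio did not separate the genotypes. With the longest transcripts as lengths the ratio was 0.326 to 0.458 and its mean over the 6 libraries 0.409, against 0.238 with all exons, so that its size depends on the length. Lats1 to Lats2 was 0.743, 1.29 and 0.830 in Zeb2 fl/fl and 0.799, 0.895 and 0.831 in Zeb2 cKO libraries, with the highest value in Zeb2 fl/fl replicate 2. That value was 0.969 with the longest transcripts as lengths, again the highest, so whether Lats1 exceeded Lats2 there depends on the length. Tead1 made up 76.9% to 86.1% of the summed level of Tead1, Tead3 and Tead4 per length, with the lowest share in Zeb2 cKO replicate 2. Vgll4 to Yap1 ranged from 0.483 to 0.612 in Zeb2 fl/fl and from 0.567 to 0.613 in Zeb2 cKO libraries. All of these ratios overlapped between the genotypes.

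The genes whose log2 CPM followed 3 of the members best over the 6 libraries, by Pearson's r among 14745 other genes, were listed as a description, since 6 points that share libraries and depth give high values for many genes. Yap1 was followed best by Hist1h3e (r = 0.977), Gapvd1 (r = 0.976) and 9930012K11Rik (r = 0.964). Of these only Gapvd1, at 34.4 to 37.5 CPM, was at a level like that of Yap1, and the other 2 stayed under 1.5 CPM. Wwtr1 was followed by Cerkl (r = 0.999), Yy1 (r = 0.997) and Dlg4 (r = 0.997), all highest in Zeb2 fl/fl replicate 2. Tead1 was followed by Rab3gap2 (r = 0.990), Gm11235 (r = 0.982) and Phospho1 (r = 0.978). Rab3gap2 showed the same pair of steps at a smaller size, with 23.7 and 23.1 CPM in replicate 2 of the genotypes and 26.0 to 26.5 CPM in the other 4 libraries.

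Of 37 other genes of the pathway, 35 were abundant enough to be tested, and 0 of them passed an adjusted p of 0.05 or an unadjusted p of 0.05. Their log2 fold changes were below 0 in 23 and above 0 in 12 (65.7% below 0, beside 51.4% of all genes), with a median of -0.028. When Zeb2 fl/fl replicate 2 was left out, 26 were below and 9 above 0 (74.3% below 0, beside 49.1% of all genes), with a median of -0.027. In 2 of the 35 the groups did not overlap, both with Zeb2 cKO lower, beside 2.97% of all genes in that direction and 6.36% in either. Wwc1 and Vgll2 were too low to be tested. Stk4, which encodes MST1, the other MST kinase, measured 15.6, 17.6 and 15.5 CPM in Zeb2 fl/fl against 13.7, 14.3 and 15.5 CPM in Zeb2 cKO hearts. Its ranges overlapped by little, at 15.5 CPM, and its fold change was -0.16 on the log2 scale (standard error 0.11), or -0.097 without Zeb2 fl/fl replicate 2. For the MOB proteins that activate LATS kinases, log2 fold changes were -0.28 (Mob1a, standard error 0.21) and -0.13 (Mob1b, standard error 0.20), and leaving out that library gave -0.0060 and -0.082. Mob1b moved more without Zeb2 cKO replicate 2, to -0.0019, and without Zeb2 cKO replicate 3, to -0.33. Nf2, whose product merlin recruits LATS to the membrane, had 0.13 (standard error 0.21), and Tead2, the fourth TEAD gene, had -0.054 (standard error 0.21). Both signs turned without Zeb2 fl/fl replicate 2, to -0.070 for Nf2 and 0.015 for Tead2.

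The other pathway gene with the smallest unadjusted p was Taok3, a kinase that can activate MST kinases. Its levels were 6.40, 9.96 and 6.38 CPM in Zeb2 fl/fl against 5.34, 6.13 and 5.84 CPM in Zeb2 cKO hearts. Its groups did not overlap (exact permutation test, two-sided p = 0.1), as was also so, with Zeb2 cKO lower, for Ptpn14, a phosphatase that binds YAP. The log2 fold change of Taok3 was -0.39 (standard error 0.20, edgeR unadjusted p = 0.094, adjusted p = 0.957), and -0.14 without Zeb2 fl/fl replicate 2. For Ptpn14 it was -0.13 (standard error 0.10), and -0.10 without that library. Vgll3, a further TEAD cofactor, and Rassf5, which binds MST kinases, had -0.79 (standard error 0.46) and -0.66 (standard error 0.45) but stood at 17.5 and 4.60 CPM in Zeb2 fl/fl replicate 2 against at most 7.17 and 2.135 CPM elsewhere. Without it they were at -0.039 and -0.0009.

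Transcripts that YAP, TAZ and TEAD are known to activate are a readout of the pathway's output. Of 21 such targets, 20 were tested and Foxf2 was too low, and with all 6 libraries in edgeR 0 passed an adjusted p of 0.05 or an unadjusted p of 0.05. Below 0 were 15 of the 20, beside 51.4% of all genes, with a median log2 fold change of -0.18. But when Zeb2 fl/fl replicate 2 was left out, 10 were below and 10 above 0, with a median of -0.019. Of all genes 49.1% were then below 0. That library held the highest level of 12 of the 20, beside 35.2% of all genes. Many of these targets are also expressed by fibroblasts, and the part of its marker levels in this was not tested.

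Ccn2, which encodes the matrix-associated growth factor CTGF, had the smallest p among the targets. The Zeb2 fl/fl group measured 80.8, 339.9 and 87.5 CPM and the Zeb2 cKO group 39.01, 49.0 and 93.1 CPM. A single Zeb2 fl/fl library thus stood far above the other 2, and Zeb2 cKO replicate 3 was above both of those. The log2 fold change was -1.49 (standard error 0.63, interval -2.99 to 0.0089, edgeR unadjusted p = 0.051, adjusted p = 0.957), and -0.48 without that library. Its unadjusted p lay under 0.05 in 5 other settings, at 0.0106 with DESeq2, but its adjusted p was at least 0.596 in every setting tried. An antisense transcript, Gm15270, shares 23.24% of its exon bases and had 18 to 43 counts per library.

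Ankrd1, a cardiac stress gene whose promoter above holds the TEAD letters at -210 and -123, was the target with the highest level. Its levels were 976, 1128 and 1516 CPM in Zeb2 fl/fl against 822, 753 and 1228 CPM in Zeb2 cKO hearts. The ranges overlapped through Zeb2 cKO replicate 3, and the fold change was -0.37 on the log2 scale (standard error 0.28, interval -1.03 to 0.29), and -0.41 without Zeb2 fl/fl replicate 2. Other libraries moved it more, to -0.17 without Zeb2 fl/fl replicate 3 and to -0.62 without Zeb2 cKO replicate 3.

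The other targets chosen to be named had fold changes that moved toward 0 or past it when Zeb2 fl/fl replicate 2 was left out. Ccn1, which encodes the matrix protein CYR61, measured 38.1, 56.1 and 27.2 CPM in Zeb2 fl/fl against 25.0, 39.5 and 24.7 CPM in Zeb2 cKO hearts. On the log2 scale this was -0.45 (standard error 0.30). It was -0.70 without Zeb2 cKO replicate 2, -0.66 without Zeb2 fl/fl replicate 3 and -0.13 without Zeb2 fl/fl replicate 2. For Myof, a membrane repair gene, the fold change of -0.70 (standard error 0.47) became 0.081. For the receptor kinase gene Axl, -0.32 (standard error 0.27) became 0.069. For the growth factor gene Tgfb2, -0.45 (standard error 0.30) became -0.098. Gadd45a, a stress response gene, was the one named target with a higher mean in Zeb2 cKO hearts, at 0.44 (standard error 0.27), and at 0.20 without that library.

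**Figure D5:**
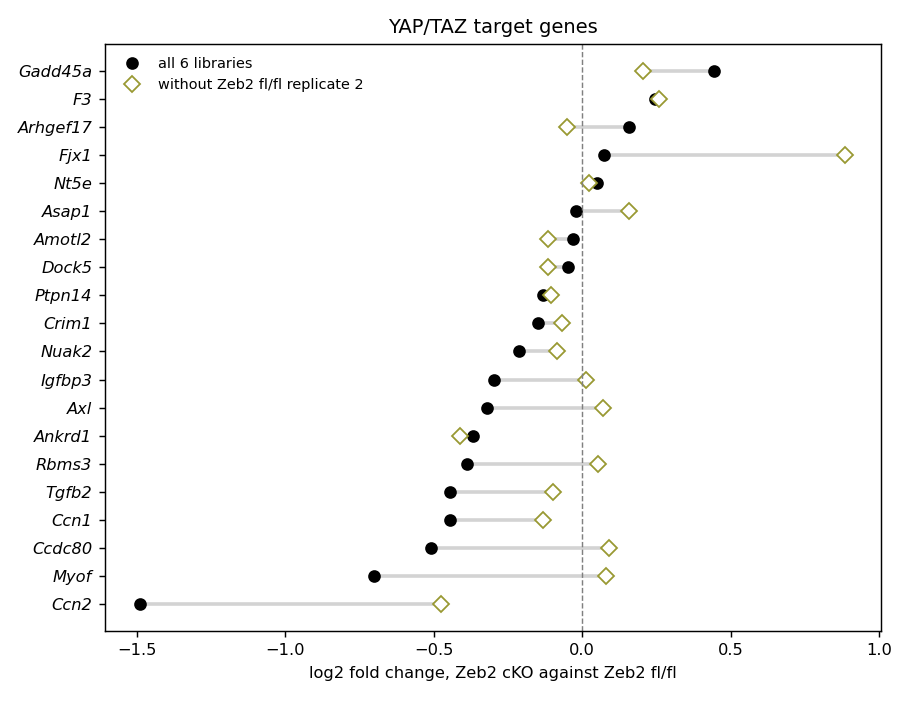
Log2 fold changes of the 20 tested YAP/TAZ targets in Zeb2 cKO against Zeb2 fl/fl hearts, from all 6 libraries (black circles) and without Zeb2 fl/fl replicate 2 (open diamonds), joined by grey lines. With all libraries 15 genes lie below 0, and without that library 10 do; Ccn2 moves from -1.49 to -0.48 and Ankrd1 from -0.37 to -0.41.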

How the data were processed

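RNA was extracted with TRIzol from heart tissue, and according to the methods strand-specific single-end libraries of RNA depleted of ribosomal RNA were sequenced. The authors aligned the reads and deposited raw counts per gene of the Gencode M4 annotation, made with a STAR workflow, for build GRCm38/mm10. The submitters' processing notes name DESeq 1.2, and DESeq was not used here. The STAR version, the strand option and the handling of reads with several matches are not given in the sources used here. The single table of counts gave 1 column for each of the 6 samples.

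Genotypes and replicate numbers were taken from the sample titles. With edgeR 4.0.16 in R 4.3.3, library sizes were scaled by TMM, genes with low counts were removed by filterByExpr at its defaults, and genotype was tested by the quasi-likelihood functions glmQLFit and glmQLFTest. The prior count was 0.125 for log2 fold changes and 2 for the log2 CPM of the likeness search, and the Benjamini-Hochberg adjustment ran over all 14746 genes. Intervals of 95% came from the same fit. For single genes, a two-sided exact permutation test was added, which cannot go below p = 0.1 here. Total counts were 37.3 to 51.1 M per library. Over the 6 libraries, the SD as a percent of the mean exceeded the counting error at the lowest count for every member but Tead3. Within Zeb2 cKO hearts it was below that error for Stk3 (1.09% against 5.5%), Vgll4 (3.46% against 4.81%) and Tead3 (4.25% against 8.08%). The scripts were tested on simulated data. Symbols, coordinates and lengths came from Gencode M21 by gene identifier, and shared stretches of at least 75 bases at 95% identity from BLAST 2.17.0.

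The members and the lists of pathway genes, targets and markers were chosen with earlier results of these data known. Named were all members and Zeb2, the 5 genes of each list with the smallest unadjusted p plus Ccn1, Ccn2, Ankrd1, Axl, Stk4, Mob1a, Mob1b, Nf2 and Tead2, and for Yap1, Wwtr1 and Tead1 the 3 genes with the highest r. Ptpn14, Wwc1, Vgll2 and Foxf2 were named after their values were seen. Alternatives covered the normalization, the test (DESeq2 1.42.0), the filter, the dispersions, the replicate number, mitochondrial genes, the prior count and each library.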

Additional observations from a re-analysis of the deposited data

How the results depend on the processing

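No member passed an adjusted p of 0.05 or an unadjusted p of 0.05 in any of the 14 settings tried, DESeq2 included. With DESeq2, 2 of all genes passed an adjusted p of 0.05, where edgeR called 0 beside 280 at an unadjusted p under 0.05; neither is a member, another pathway gene or a listed target. The number of genes at an unadjusted p under 0.05 was 600 without a filter on low counts, and 122 to 1134 when each library was left out in turn. Over those leave-one-out fits, members above 0 numbered 1 to 2, and the median log2 fold change of the members lay between -0.17 and -0.051, the latter without Zeb2 fl/fl replicate 2. Among the named pathway genes and targets, unadjusted p-values under 0.05 came up for Ccn2 in 5 settings (0.0106 with DESeq2, 0.0238 with no filter, 0.0237 and 0.0320 without Zeb2 fl/fl replicate 1 or 3, and 0.0400 without Zeb2 cKO replicate 3), for Ccn1 with the replicate block (0.0471), and without Zeb2 fl/fl replicate 1 for Rassf5 (0.0239), Gadd45a (0.0196) and Myof (0.0413), with adjusted p-values of 0.596 or more from edgeR or DESeq2.

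Directions turned only in fits that left out 1 library. Lats1 ranged from -0.42 to 0.024, Tead4 from -0.0075 to 0.48, Myof from -1.02 to 0.081, Axl from -0.51 to 0.069 and Nf2 from -0.070 to 0.34, each turning without Zeb2 fl/fl replicate 2. Tead1 ranged from -0.16 to 0.15, turning without Zeb2 fl/fl replicate 1 or 3 or Zeb2 cKO replicate 2, and Tead2 from -0.19 to 0.12, turning without Zeb2 fl/fl replicate 2 or Zeb2 cKO replicate 1. These causes were not tested.

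Same-numbered libraries did not deviate together (r = 0.0878, -0.1375 and -0.0869), so the numbers were not taken as pairs. With the replicate number as a block, the median of the members was -0.13, 1 member was above 0, and 0 members, 0 other pathway genes and 0 targets passed an adjusted p of 0.05. With 3 mice per genotype the 95% intervals still include log2 fold changes as far as -0.84 for Lats1 and 0.97 for Tead4.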
